A study of Ovis aries with 3 samples.

Results

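The transcripts that encode proteins of the small subunit of the cytosolic ribosome were followed in extracellular vesicles from sheep conceptuses, where they were measured as RNA. Rows of the deposited table were taken by symbol (names that begin with RPS and a digit, or RPSA, without the RPS6K kinases) or, where a row had no symbol, by a description as a ribosomal protein S or 40S ribosomal protein that is neither mitochondrial nor a kinase. This gave 47 of 25197 rows, 23 with a symbol and 24 known only by an Ensembl identifier and a description. The rule also took RPS27L, a paralogue of RPS27, and RPS19BP1, which is a binding partner of RPS19 and no part of the ribosome.

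The 3 libraries formed 1 group with no control. Each came from extracellular vesicles of intact conceptuses, meaning the embryo together with its extraembryonic tissues, at day 14 of gestation, held for 24 h in 10 ml of DMEM/F-12 medium with 10% exosome-depleted fetal bovine serum, insulin, glutamine, pyruvate, amino acids and antibiotics. Every conceptus had its own dish, but no label says which animal a library came from, and some of the spread among libraries could be technical. Vesicles were precipitated from filtered medium and 5 ng of their RNA was made into SMART-Seq v4 libraries, which are primed on poly(A) tails.

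Ribosomes translate messenger RNA, and the small subunit is the part that binds the message, scans for the start codon and checks the pairing of codon and transfer RNA. It is built of 1 ribosomal RNA and a set of proteins, each of which is present in a single copy, and is divided into a head, which swivels over the message, and a body with a platform. Ribosomal protein messages are among the abundant messages of growing tissue, and the day 14 conceptus is in the phase of rapid elongation of its trophectoderm.

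The file names no unit, and the values were taken as RPKM-type, that is, as reads scaled for gene length and library depth, so that levels of different genes can be set side by side. Where 3 values follow a gene, they belong to libraries 1, 2 and 3. A row counts as detected where each of the 3 libraries has a value of at least 1. The values of all rows added up to 17480.7 in library 1, 40060.3 in library 2 and 9531.8 in library 3, and library 3 stood apart with the lowest sum and the most rows listed at 0 (12106). Reads per value depend on gene length, and in a gene as short as U6 RNA a value of 1 stood for an estimated 2.40, 1.85 and 2.23 reads. Olfactory receptor genes, used as a measure of background, had a 99th percentile of 1.45, 1.02 and 1.75. Of 8 trophectoderm markers 2 were detected, the epithelial keratin KRT8 (26.3, 138.9 and 27.3) and the interferon tau gene TP-1 (6.7, 26.2 and 4.7), while GATA2 was listed at 0 and CDX2 reached at most 0.5. The summed level of trophectoderm markers ranged between 35.3 and 171, that of 5 epiblast markers between 2.3 and 4 and that of 6 endoderm markers between 7.7 and 11.6. The 4 uterine epithelium markers summed to 54.5, 156.7 and 8.7, while 5 leukocyte markers summed to at most 5.7 and 3 erythroid markers to at most 0.5. No medium without a conceptus was analysed here, so RNA from the bovine serum cannot be told apart from that of the conceptus, nor can fewer vesicles from less RNA per vesicle.

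Small subunit messages fell into a large group of strong rows and a large group of rows at the floor. Of the 47 rows, 23 were detected (48.9%), against 3.89% of all rows of the table. At a value of at least 2 in every library 22 remained (1.89% of all rows), at 5 there were 17 (0.687%) and at 10 there were 9 (0.325%). At the looser value of 0.5 there were 29 (7.56%). Without library 3, 28 rows were detected, against 7.29% of all rows. The median over the 47 rows was a log2(value + 1) of 1.90 ± 0.59 (SD, n = 3). It was 2.00 in library 1, 2.43 in library 2 and 1.26 in library 3, against 0.14 in each library over all rows, and it averaged 2.22 without library 3. A mean of 20 or more was reached by 20 rows, which held 97.1%, 98.0% and 93.8% of the summed value of all 47. This bound was set after the values were seen just under RPS15, at a mean of 20.5, and 10 rows lay between 1 and 20. Another 17 rows had a mean under 1.

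**Figure D1:**
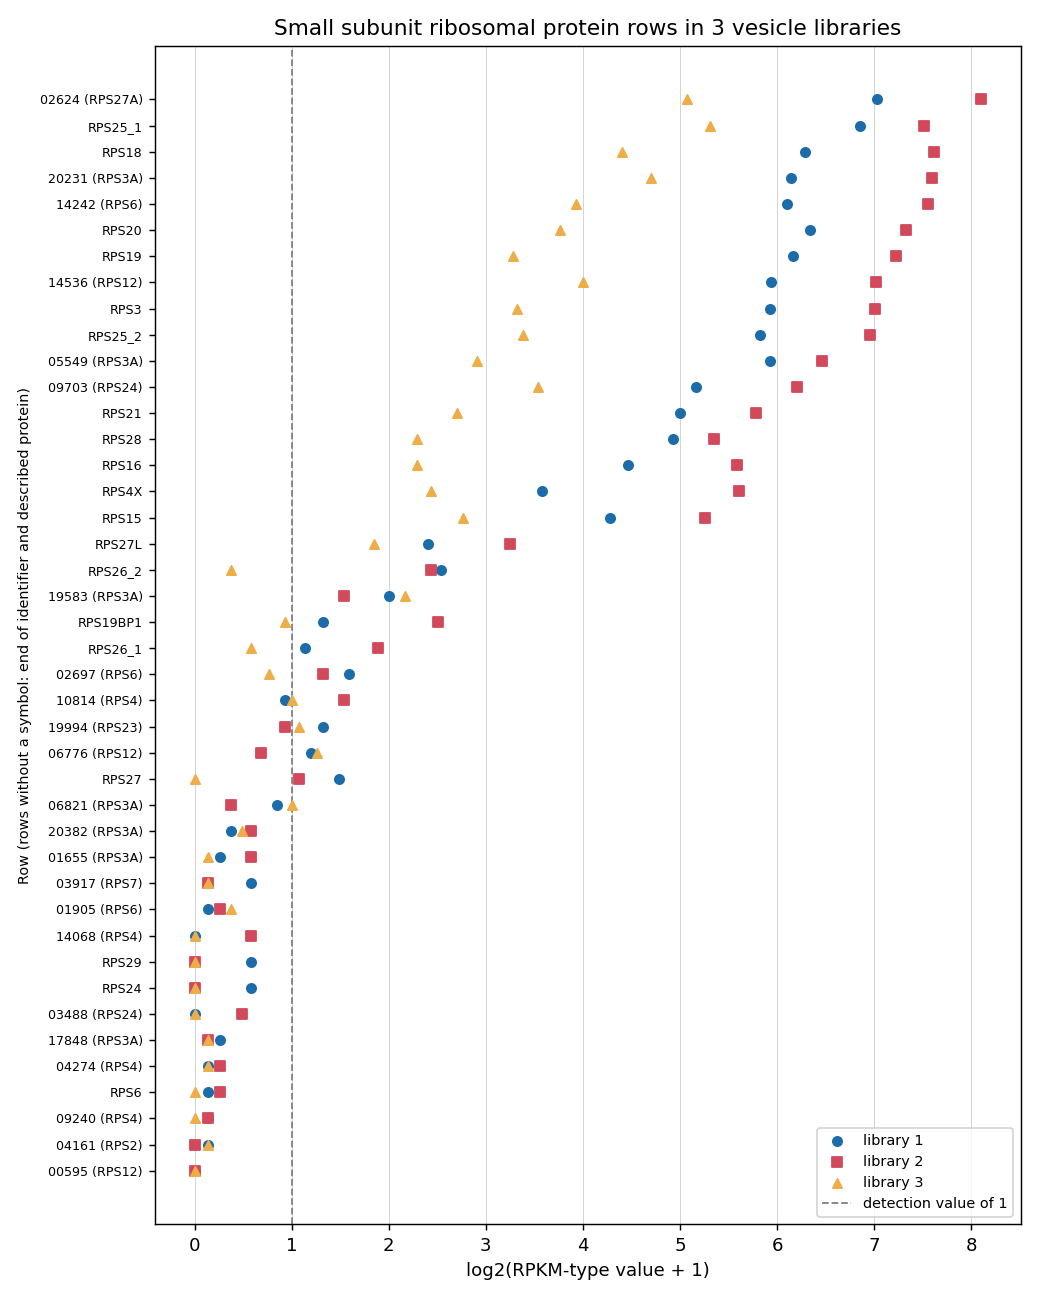
Level of 42 of the 47 rows in library 1 (circles), library 2 (squares) and library 3 (triangles), as log2(RPKM-type value + 1), ordered by mean, with a dashed line at a value of 1. The upper 17 rows are ordered library 2, 1, 3 from high to low, and the lower rows gather at the line and left of it.

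Proteins of the head supplied 9 of the 15 highest rows, 2 of them rows of RPS25. Head proteins were 13 of the 25 small subunit proteins with a row, so this count is not read as a trait of the head. The highest row was ENSOARG00000002624, described as S27a, a protein of the beak of the head that is made as a fusion with ubiquitin. It had 129.9, 273.8 and 32.7 in libraries 1, 2 and 3 (145 ± 121, SD, n = 3), and ranked 7th in library 1, 9th in library 2 and 20th in library 3 among all rows. RPS25, a head protein needed in yeast and human cells for initiation at several viral entry sites, followed with 114.9, 182.3 and 38.5 in its row RPS25_1. RPS18, which contacts transfer RNA and the large subunit from the head, stood at 77.1, 195.4 and 20.2. In each of these rows library 2 was highest and library 3 lowest, and the values spanned several fold.

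RPS20, another head protein, had 80.2, 159.6 and 12.6. RPS19 is the gene most often mutated in human Diamond-Blackfan anaemia, and its product is needed to mature the small subunit RNA. It had 70.7, 148.9 and 8.7. The row ENSOARG00000014536, described as the beak protein S12, had 60.2, 128.8 and 15. RPS3, which lines the entry of the messenger RNA channel, had 59.8, 127.8 and 9. The 4 rows lay close together in libraries 1 and 2, and in library 3 the S12 row was the highest of them.

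Further head proteins were lower but detected. RPS28 had 29.4, 39.8 and 3.9, and RPS16, whose tail reaches the transfer RNA in the P site, had 21, 47.2 and 3.9. RPS15, whose tail reaches toward the decoding centre, had 18.4, 37.2 and 5.8. RPS28 and RPS16 had the same value in library 3. RPS29, a small zinc-binding protein, was listed at 0.5, 0 and 0 and was the one head protein with a row that was not detected.

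Among proteins of the body and platform, S3a and S6 led. ENSOARG00000020231, described as S3a, a platform protein beside the exit of the messenger RNA channel, had 69.6, 192.4 and 25. ENSOARG00000014242, described as S6, the classical substrate of the S6 kinases downstream of mTOR, had 67.5, 187.2 and 14.2. Both were of the size of RPS18, and again highest in library 2 and lowest in library 3.

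S24 was represented by ENSOARG00000009703, with 34.8, 72.6 and 10.6. RPS21 stood at 31, 54.1 and 5.5, and RPS4X, the X-linked gene of a protein of the body, at 10.9, 47.7 and 4.4. Library 2 was thus 4.38 times library 1 for RPS4X, the highest such ratio among the 20 strong rows, and 1.35 times for RPS28, the lowest.

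The remaining body proteins were near or below the value of 1, where counting error is large and an exact 0 can be a failed estimate. RPS26, which sits at the messenger RNA exit, had 4.8, 4.4 and 0.3 in the row RPS26_2 and 1.2, 2.7 and 0.5 in RPS26_1. RPS27 was listed at 1.8, 1.1 and 0, and the row described as S23, a protein of the decoding centre, at 1.5, 0.9 and 1.1. The row described as S7 was listed at 0.5, 0.1 and 0.1, and the row described as S2, at the messenger RNA entry, at 0.1, 0 and 0.1. None of these lay above the olfactory receptor percentile in all 3 libraries, whereas each of the 23 detected rows did. Just inside the detection rule lay ENSOARG00000019583, a further S3a row, with 3, 1.9 and 3.5. Just outside lay RPS19BP1, with 1.5, 4.7 and 0.9, and ENSOARG00000010814, described as S4, with 0.9, 1.9 and 1.

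Counted by protein, 31 proteins of the small subunit were listed, 14 of the head and 17 of the body and platform. A row was found for 25 of them. RPSA, RPS9, RPS10, RPS13, RPS14 and RPS15A had no row under the rule and are not analysed here. The same holds for FAU and GNB2L1 (RACK1), which the rule does not take and for which no row matched. LAMR1, an older symbol of RPSA, was a detected row with a mean of 34.8 that the rule did not take. It was counted among other rows and is not in the body counts or the body median. At least 1 row was detected for 19 of the 25 proteins, 12 of 13 in the head and 7 of 12 in the body. A protein counts here if any of its rows passes, so these are not shares of rows. Per row the share was 48.9% for the members and 3.89% for all rows. Taking the highest row of each protein, the head minus body difference in median log2(value + 1) was 1.22 ± 0.47 (SD, n = 3), made up of 1.64, 1.31 and 0.71. The median value of the head proteins was 59.8, 127.8 and 8.7, against 20.9, 50.9 and 4.95 for the body proteins. The difference had the same sign in 3 of 3 libraries. No p is given, since the proteins were chosen with earlier results known and an exact sign-flip test over 3 libraries could give none under 0.25. With rows of a mean under 0.5 left out, the difference was 0.76, and without library 3 it was 1.48.

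Rows of the same protein often differed widely. Several rows existed for 8 proteins, and in 5 of them, S6, S12 and S24 included, 1 row held at least 80% of the value in each library. For S12, ENSOARG00000014536 was 46.3, 215 and 10.7 times ENSOARG00000006776, which had 1.3, 0.6 and 1.4, and the third S12 row was listed at 0 in all 3 libraries. For S6 and S24 the row that carries the symbol was not the one that carried the signal. The row RPS6 was listed at 0.1, 0.2 and 0 while the row described as S6 had 67.5, 187.2 and 14.2. The row RPS24 was listed at 0.5, 0 and 0 while the row described as S24 had 34.8, 72.6 and 10.6. A reading by symbol alone would miss 5 detected proteins, S27a, S3a, S6, S12 and S24. Rows without a symbol made up 38.0%, 38.8% and 42.2% of the summed value of the 47.

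**Figure D2:**
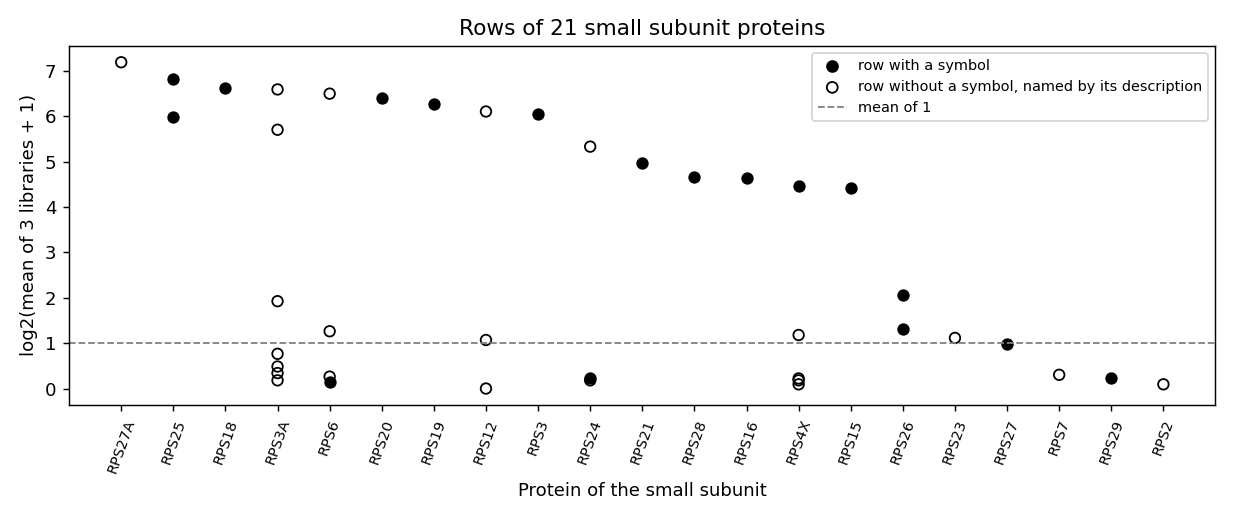
Mean over 3 libraries, as log2(mean + 1), of every row of 21 small subunit proteins, with filled circles for rows with a symbol and open circles for rows named by their description; rows described only as S4 are drawn with RPS4X, and the dashed line marks a mean of 1. Strong rows and rows at the floor stand apart within S3a, S6, S12, S24 and S4, and the strong row of S6, S12, S24, S3a and S27a is an open circle.

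RPS25 and S3a were the proteins with more than 1 strong row. RPS25_1 exceeded RPS25_2, which had 55.8, 123.5 and 9.4, by 2.06, 1.48 and 4.10 times. Among the 7 rows of S3a, ENSOARG00000020231 exceeded ENSOARG00000005549, which had 59.8, 87.3 and 6.5, by 1.16, 2.20 and 3.85 times. In both pairs the weaker row was lowest in library 3 and the gap was widest there. The counting of reads shared by near-identical copies is not given in the sources used here, so the division between such rows is uncertain. A shift with library was also seen for RPS26, where RPS26_2 was 4, 1.63 and 0.60 times RPS26_1, but at values where few reads decide the ratio.

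The row of the paralogue RPS27L exceeded the only row of RPS27. RPS27L, a target of p53 in human cells, had 4.3, 8.5 and 2.6 and was detected, while RPS27 was listed at 1.8, 1.1 and 0. RPS27L was 2.39 and 7.73 times RPS27 in libraries 1 and 2, and in library 3 RPS27 was listed at 0. The RPS27 values of 1.8 and 1.1 lay just above the olfactory receptor percentile, where few reads decide the ratio.

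All 20 strong rows were highest in library 2, next in library 1 and lowest in library 3. The bound of 20 is on the mean of deposited values, where library 2 weighs most and library 3 least. The choice of rows thus favoured this order, and low library 3 values in the comparisons that follow. Of the 23 detected rows 22 were highest in library 2 and lowest in library 3, against 53.4% of all detected rows. The same 22 were the rows lowest in library 3, against 55.6% of all detected rows. The exception was ENSOARG00000019583. Among the 118 other rows of the table with a mean of 20 or more, 101 (85.6%) were highest in library 2 and lowest in library 3. In the strong rows library 2 was 2.12 times library 1 at the median (1.35 to 4.38) and 10.5 times library 3 (4.74 to 17.1). RPS25_1 had the lowest and RPS19 the highest ratio of library 2 to library 3.

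After scaling, most strong rows were no longer highest in library 2, while all stayed lowest in library 3. When each library was multiplied by the factor that brings its median detected gene to a common level (1.14, 0.515 and 1.46 for libraries 1, 2 and 3), 7 of the 20 strong rows were highest in library 2, and all 20 were lowest in library 3. How many other rows were highest in library 2 after scaling was not counted. Of the 23 detected rows 22 were then lowest in library 3, against 37.2% of all 981 detected rows, and with sums made equal instead it was 21, against 24.8%. The scaled sums of the 47 rows were 1301, 1264 and 397 in libraries 1, 2 and 3.

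On the log2(scaled value + 1) scale, library 3 minus the mean of libraries 1 and 2 had a median of -1.87 over the strong rows (-2.54 for RPS19 to -0.97 for RPS25_1). It was -1.32 over 25 large subunit rows and -1.22 over all 118 other rows of the table that reached the same mean of 20. Of those 118 rows, 94 (79.7%) were lowest in library 3. Other abundant transcripts thus shared the direction. Over all 958 detected rows outside the small subunit set, abundant ones included, the median was 0.08. The scaling is set on the median of detected rows, which holds this value near 0, so it is no separate contrast. These are values of 1 library, set out after they were seen, with no test. On this scale the difference was -0.21 for KRT8 and -0.51 for TP-1, the detected trophectoderm markers. It was -1.97 for LGALS15, -3.41 for CST6 and -2.01 for FXYD4, the detected uterine epithelium markers. The part of depth, RNA quality or tissue make-up in this was not tested.

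**Figure D3:**
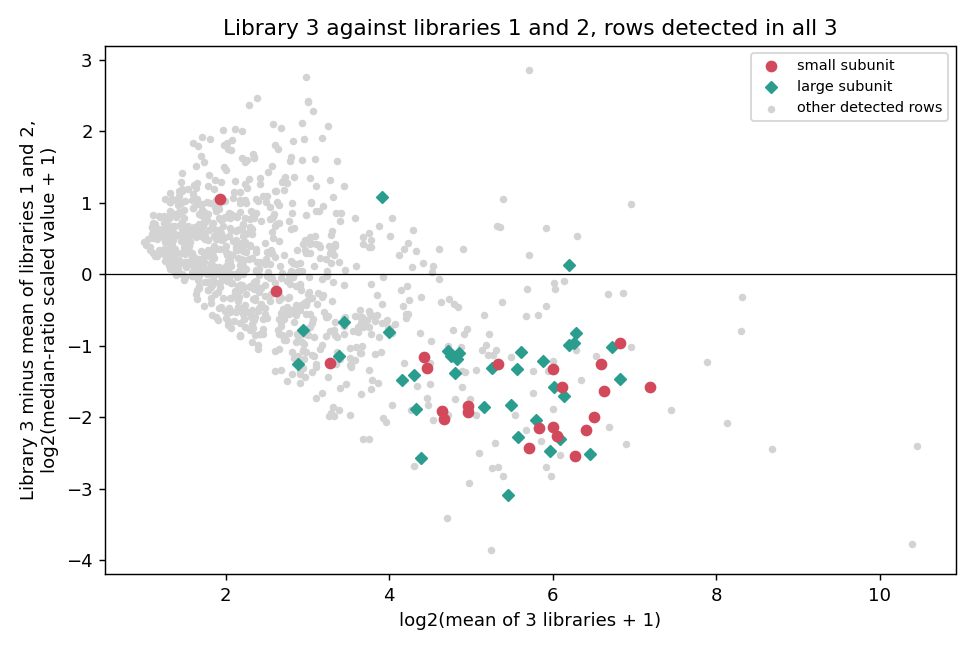
Each point is a row detected in all 3 libraries; the vertical axis is library 3 minus the mean of libraries 1 and 2 in log2(median-ratio scaled value + 1), the horizontal axis log2 of the mean of the deposited values + 1. Small subunit rows (circles) lie between -2.54 and -0.97 at means of 20 or more, among large subunit rows (diamonds) and other abundant rows (grey).

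The order of the members was much the same in each library. Across the 47 rows Spearman's rho was 0.949 for libraries 1 and 2, 0.936 for 1 and 3 and 0.932 for 2 and 3, and within the 20 strong rows 0.942, 0.837 and 0.885. Genes are no independent replicates, and no p is given. With library sums made equal, rows with a mean of 1 or more were compared by the SD of log2(value + 1) between libraries. It was lowest, at 0.11 to 0.36, for RPS26_1, RPS19BP1, RPS27L, RPS25_1 and ENSOARG00000010814. The added 1 compresses differences between values near 1. RPS26_1, RPS19BP1 and ENSOARG00000010814 were not detected, and RPS26_1 as deposited was 5.4 times higher in library 2 than in library 3. The most variable were RPS19, at 1.17, ENSOARG00000005549, at 1.15, ENSOARG00000019583, RPS3 and RPS26_2. RPS19 and RPS3 stood out by library 3, where they ranked 125th and 117th after 22nd and 32nd in library 1.

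The share of small subunit rows in a library's summed value was 6.53%, 6.13% and 2.85% (5.17% ± 2.02, SD, n = 3; 6.33% without library 3), against 7.95%, 7.18% and 4.39% for 67 large subunit rows. The sums are of values per length, so these are not shares of reads. Among the 100 highest rows of each library 17, 15 and 9 were small subunit rows, and 23, 20 and 13 large subunit rows. Large subunit rows were detected in 35 of 67 cases (52.2%, against 3.89% of all rows).

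Whether the subunits differ in level depended on how rows were counted. Over all rows the small minus large subunit difference in median log2(value + 1) was -0.88 ± 0.47 (SD, n = 3), below 0 in 3 of 3 libraries, and -1.05 without library 3. With 1 row per protein it was -0.04 ± 0.24, with rows of a symbol only 0.71, and with rows of a mean of at least 0.5 it was 0.02. The small subunit set holds many rows at the floor that share a protein with a strong row, such as the 4 of 7 S3a rows with a mean under 1. The same settings were applied to the large subunit set, where such rows were not counted, so their part in the difference was not tested.

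Over all rows the median of the cytosolic small subunit exceeded that of its mitochondrial counterpart and of the translation factors, but in library 2 this rested on RPS19BP1 and RPS27L. The difference in median log2(value + 1) was 0.60 ± 0.31 against 25 mitochondrial small subunit rows and 0.58 ± 0.32 against 46 translation factor rows (SD, n = 3), above 0 in 3 of 3 libraries for each, and without library 3 they were 0.56 and 0.42. Without RPS19BP1 and RPS27L the differences were 0.42 ± 0.61 and 0.39 ± 0.62 (SD, n = 3), less than the spread between libraries, and in library 2 they were -0.28 and -0.30. With 1 row per protein these were 3.13 ± 0.93 and 3.05 ± 0.67. Mitochondrial small subunit rows were detected in 9 of 25 cases (36%) and translation factors in 14 of 46 (30.4%), against 3.89% of all rows. By summed value the cytosolic set was 28.3, 20.3 and 11.96 times the mitochondrial set in libraries 1, 2 and 3. No p is given, for the reason stated for the head and body.

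**Figure D4:**
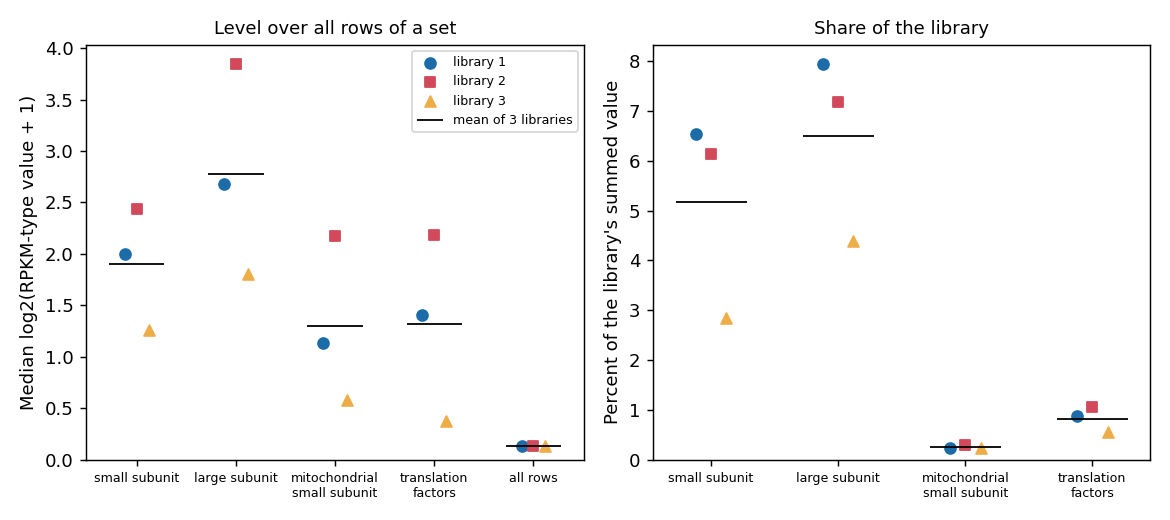
Left, median log2(RPKM-type value + 1) over all rows of each set; right, percent of the library's summed value; symbols stand for libraries 1 to 3 and lines for the mean of 3. The small subunit lies below the large subunit and above the mitochondrial and translation factor rows in each library.

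Genes that build the small subunit were mostly below detection. Of 25 assembly factor rows 3 were detected (12%, against 3.89% of all rows), with a median log2(mean + 1) of 0.79, against 1.93 for the 47 small subunit rows and 0.18 for all rows. The detected ones were NOP56 (1.2, 3.4 and 2.4) and NOP58 (1.1, 3.1 and 1.4), core proteins of box C/D particles, and TSR3 (1.3, 2.7 and 1.9), which modifies the small subunit RNA. FBL, the methyltransferase of those particles, had the highest mean of the list but was not detected, with 2.9, 12 and 0.1. EMG1, another RNA methyltransferase, had 0.5, 4.7 and 1.7. NOP56, NOP58 and TSR3 lay below the olfactory receptor percentile of 1.45 in library 1, and NOP58 also below that of 1.75 in library 3.

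Initiation factors that bind the small subunit were detected in 8 of 20 cases (40%, against 3.89% of all rows). Their median log2(mean + 1) was 1.89. EIF1, which guards start codon choice, reached 47.7, 116.5 and 7.2, within the range of the strong small subunit rows. EIF3G, a subunit of the scaffold factor eIF3, had 9.7, 24.6 and 1.1. In library 3 EIF3G, EIF1AX, EIF3M and EIF2S2, all detected, lay below the olfactory receptor percentile of 1.75. Without library 3 the 11 detected genes of the assembly and initiation lists became 21, and at a detection value of 2 they became 2.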

How the data were processed

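Per the labels' protocols, sequencing gave read pairs of 50 bp; the submitters' processing notes name the genome build Oar_v3.1. Aligner and counting program are not stated there. The authors deposited 1 table of values that name no unit. They were taken as RPKM-type (RPKM or FPKM), rounded by the authors to 1 decimal; counts could not be recovered without gene lengths, so no count model was fitted. Library numbers follow the sample labels and are names only, and columns were matched to libraries by title. The members, lists and comparisons were chosen with earlier results of these data known. Proteins of rows without a symbol come from their descriptions. Levels are log2(value + 1), detection needs a value of at least 1 in each library, and scaled values use equal sums or the median ratio over detected rows. Named rows were the 15 highest, those of a symbol with several rows, proteins not detected, the 5 most and 5 least variable, and paralogues; other strong rows were added, and a few members are counted but not reported here by name. Of detected rows 16, 25 and 14 had equal values in libraries 1 and 2, 1 and 3, and 2 and 3, so no library was a copy. Alternatives were detection values, a pseudocount of 0.1, both scalings, other treatments of copies, a filter at a mean of 0.5 and leaving out each library. The functions were tested on simulated data. Python 3.11.15, pandas 2.3.3 and numpy 2.4.6 were used.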

Additional observations from a re-analysis of the deposited data

How the results depend on the processing

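The count of detected small subunit rows stayed within 1.5 times of 23 under 13 other settings (16 to 29), but was 9 at a detection value of 10, chosen after seeing the data. The mean head minus body, mitochondrial and translation factor differences stayed above 0, but without RPS19BP1 and RPS27L those against mitochondrial rows and translation factors turned below 0 in library 2. The share of summed value stayed within 1 SD (3.15% to 6.33%). The small minus large subunit difference of -0.88 turned to 0.71 with rows of a symbol only and to 0.021 with rows of a mean of 0.5 or more. The median level of 1.90 moved to 4.16 with rows of a symbol only, to 4.43 with 1 row per protein or with copies summed, and to 4.38 with the filter at 0.5, all of which take out rows at the floor. Rows highest in library 2 and lowest in library 3 numbered 7 with equal sums and 9 with median-ratio scaling, against 22. The share of all detected rows with that order was not counted under either scaling, so the drop is not read as a trait of the members. The mean rho of 0.939 was 0.965 with symbols only, 0.957 with 1 row per protein and 0.966 with copies summed, and 0.932 to 0.949 with a library left out. Detected assembly and initiation genes numbered 2 and 1 at detection values of 2 and 5, and 11 to 21 with a library left out. Leaving out the S3a rows (median 2.26) and the 3 highest rows of the table (share 5.98%) were alternatives chosen after seeing the data. No paired analysis was possible because the libraries form 1 group. Depth limits what can be said of rows near a value of 1.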

Other observations

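The elongation factor rows EEF1A1 and EEF2 were not detected and had means below those of the 20 strong small subunit rows, an observation chosen after the values were seen. EEF1A1, the carrier of transfer RNA to the ribosome, had 1.1, 2.2 and 0.3 in libraries 1, 2 and 3, and EEF2, the translocase, 1.5, 2.3 and 0.2. Subunits of the exchange complex of EEF1A1 were higher and detected, with 6.3, 14.2 and 1.5 for EEF1G and 10.8, 27.2 and 2.7 for EF-1, described as elongation factor 1-delta. In other mammals elongation factor messages belong, with those of ribosomal proteins, to the class that begins with a terminal oligopyrimidine tract. A further 7 rows described as elongation factor 1-alpha reached at most 0.2, and reads shared among such copies may be split or lost.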
